A study of Homo sapiens with 18 samples.

Results

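What imatinib added to JQ1 was read from 6 of the 18 RNA-seq libraries of the series: 3 of cells given imatinib together with JQ1 for 24 h, and 3 of cells given JQ1 alone for 24 h, each drug at 500 nM. All 12771 genes that passed a filter on level, of 23621 in the deposited table, were compared. The cells were GIST-T1, an established human line from a gastrointestinal stromal tumor that depends on the kinase KIT, grown in DMEM with serum. Beside these groups, 6 further libraries (imatinib alone at 500 nM for 24 h, and DMSO, for which no time is given) show the effect of imatinib without JQ1. The study used 1 cell line, and nothing in the labels tells if replicate libraries came from separate cultures, so p-values measure only the spread between these libraries, which may be technical.

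KIT is a receptor tyrosine kinase that signals through the RAS and ERK cascade and through PI3K and AKT, and gastrointestinal stromal tumors usually carry a form of it that is active without its ligand. Imatinib occupies the ATP site of KIT and stops that signalling. JQ1 displaces BET proteins, readers of acetylated histones, from promoters and enhancers and so acts on transcription itself. The comparison asks what KIT inhibition adds in cells whose BET proteins are already inhibited.

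Values are FPKM on the scale of ERCC spike-ins, RNAs that per the labels were added in relation to cell number. Read depth is unknown. Summed FPKM was 286566, 499857 and 355558 in the combination libraries 1, 2 and 3, against 575762, 619735 and 686118 in the JQ1 libraries, of which the first has no number of its own in the labels. Libraries are given in this order throughout. Every combination library lay below every JQ1 library, and the means, 380660 ± 108839 and 627205 ± 55556 (SD, n = 3 each), differed 1.65-fold. An exact two-sided permutation test gave p = 0.1, the smallest p that 3 against 3 libraries allow. The spike-in sums were 6608 and 6607. Scaling to the spike-ins would itself make these sums alike, so they cannot check the difference in totals. RNA was normalized to cell count per the labels; within such a bulk library, fewer cells of a type or state and less RNA per cell cannot be told apart. Combination library 2 had the highest total of its group and library 1 the lowest.

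On the deposited scale, adding imatinib to JQ1 lowered many genes and raised very few. A gene was called where limma's adjusted p was below 0.05 and the log2 change of FPKM + 1 was at least 1 in size. On the deposited scale 939 genes fell, 7.35% of those tested, and 6 rose, 0.047%, together 945 genes or 7.4%. Without combination library 1 the falling number was 459 and without library 2 it was 2365, while the rising number was 2 without library 2. The typical tested gene, by the median, changed by -0.54 on the log2 scale, so values were also rescaled: every library was divided by its typical gene ratio, the median, to a library of geometric means, which leaves changes relative to the typical gene. After this rescaling the median was 0.02, 104 genes fell (0.814%) and 29 rose (0.227%), together 1.04%, and these include all 6 rising calls of the deposited scale. All 104 of the rescaled falls were falls on the deposited scale too. With no fold limit, 3526 genes rose and 3004 fell after this rescaling (limma adjusted p below 0.05), so rises were rare only on the deposited scale. In 7743 of the 12771 tested genes the 3 combination libraries lay below all 3 JQ1 libraries, and in 28 they lay above. The rule that named the steepest falls and largest rises of the deposited scale required no overlap. For those genes a lack of overlap adds no support.

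**Figure D1:**
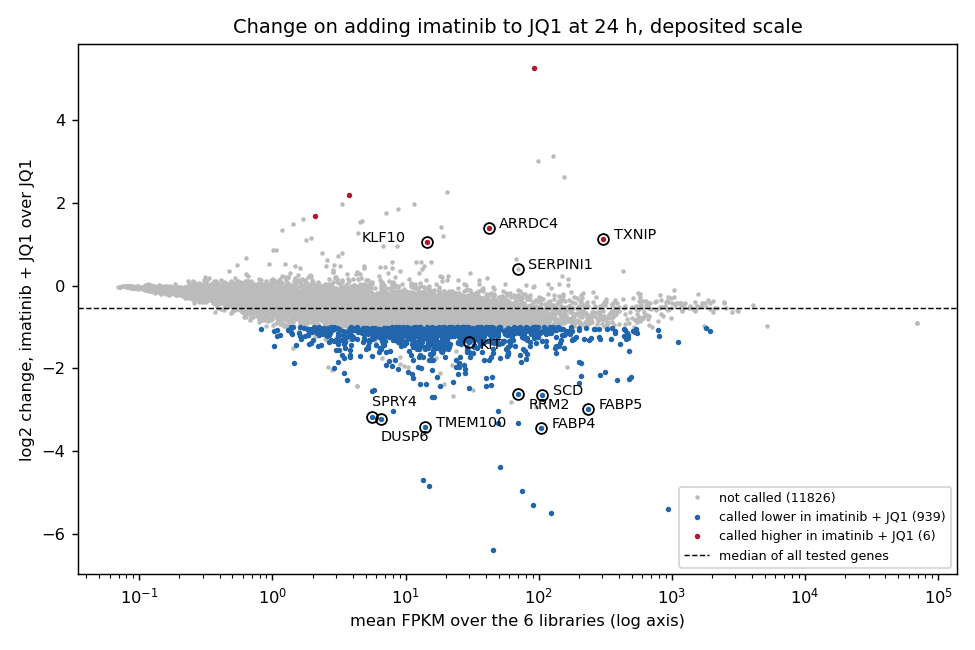
Log2 change of each tested gene, imatinib plus JQ1 over JQ1 at 24 h (vertical axis), against its mean FPKM over the 6 libraries (horizontal log axis), on the deposited scale. The dashed line is the median of all tested genes, -0.54; 939 genes were called lower, 6 higher, and the genes circled are described in the text.

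ERK pathway output genes, which are switched on by active ERK and largely restrain it in turn, were among the steepest falls. DUSP6, a phosphatase that inactivates ERK, had 0.417, 0.416 and 0.471 FPKM with imatinib plus JQ1, against 9.96, 13.3 and 14.7 FPKM with JQ1. The combination libraries lay far below the JQ1 libraries, 29.1-fold by the means, a log2 change of -3.23 ± 0.19 (SE; limma adjusted p = 8.04e-11). SPRY4, a Sprouty protein that damps receptor tyrosine kinase signalling, had 0.287, 0.361 and 0.236 FPKM, against 8.84, 10.9 and 12.9 FPKM. Its groups did not overlap either, and the log2 change was -3.19 ± 0.17 (adjusted p = 1.47e-11). Its relative SPRY2 had 6.75, 11.03 and 7.77 FPKM with the combination, against 44.99, 50.3 and 58.7 FPKM with JQ1 (6.03-fold lower). ETV5, an ETS transcription factor, had 2.67, 4.93 and 3.32 FPKM, against 24.5, 28.3 and 33.9 FPKM. The related ETV4 was low throughout, at 0.195, 0.391 and 0.192 FPKM with the combination and 1.62, 1.82 and 2.32 FPKM with JQ1, and also fell.

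These 5 falls held after rescaling, with log2 changes of -3.15 for DUSP6, -3.21 for SPRY4, -1.83 for SPRY2, -2.16 for ETV5 and -1.19 for ETV4. Of the 18 tested genes of the ERK output list, 8 fell, beside 7.35% of all genes, and 5 after rescaling, beside 0.814%. The list's median log2 change was -0.89, beside -0.54 for all genes, and -0.29 after rescaling, beside 0.02. CCND1, the cyclin D1 gene, was the list's call nearest the limit, with 1.07, 2.07 and 1.52 FPKM, against 3.47, 4.58 and 4.81 FPKM and a log2 change of -1.06. That call ended after rescaling (-0.63), without combination library 1 (-0.917) and without JQ1 library 3 (-0.988). Without combination library 1 the list had 5 falls, and without library 2 it had 10.

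Of the members that were not called, SPRED1, another damper of the pathway, had a log2 change of -0.46 and IER3 -0.42, with 0.09 for each after rescaling; both were chosen after their values were seen. Immediate early genes, which growth factors induce without new protein synthesis, fell at about the share of all genes: of 13 tested, IER2 fell (7.69%, beside 7.35% of all genes), with -1.13 and, rescaled, -0.53 and no call, and KLF10 rose, beside 0.047% of all genes. Without combination library 2, 3 of them fell. MYC itself was at 0.688, 0.738 and 0.611 FPKM with the combination and 0.481, 0.58 and 0.869 FPKM with JQ1. Its groups overlapped, and its log2 change was 0.04 ± 0.13 (adjusted p = 0.799), with 0.45 after rescaling and -0.03 without the unnumbered JQ1 library. MYCN, a relative of MYC, did fall, to 0.48, 0.985 and 0.661 FPKM with the combination, against 3.35, 3.37 and 4.27 FPKM with JQ1 (-1.45, -1.22 rescaled).

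**Figure D2:**
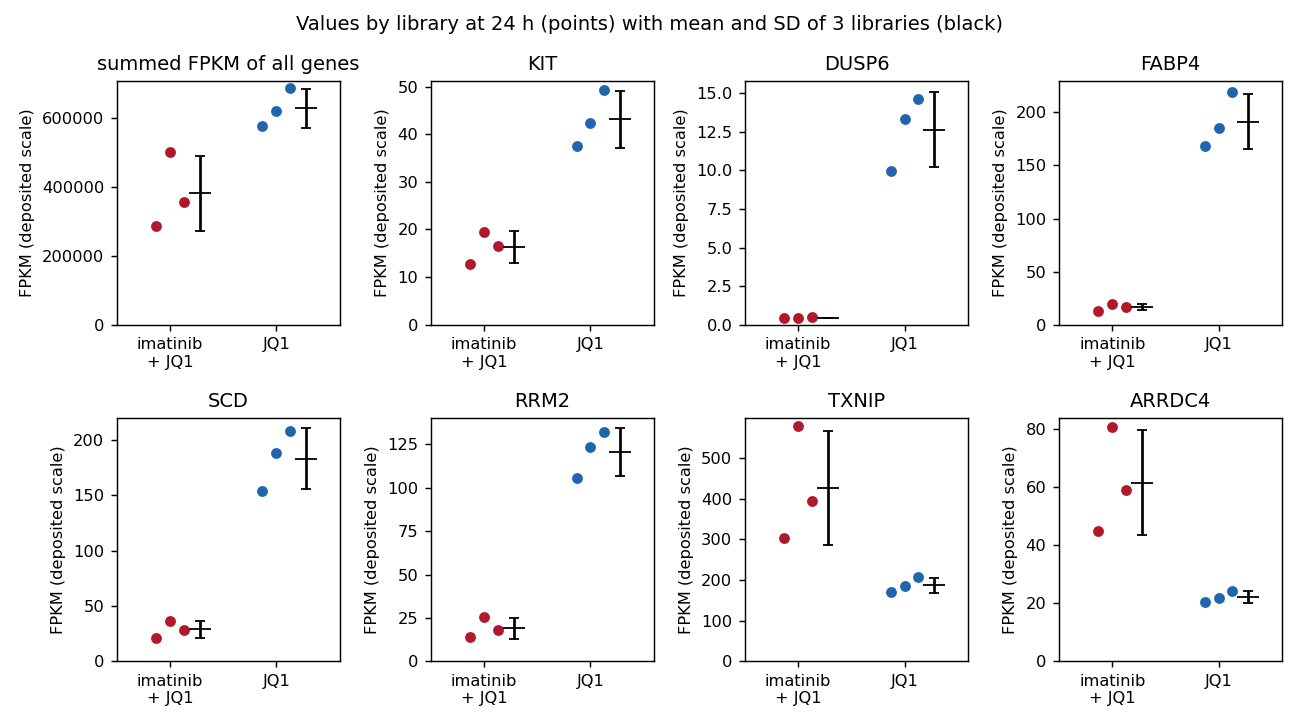
FPKM on the deposited scale of all genes summed and of 7 named genes in each library (points; imatinib plus JQ1 in red, JQ1 in blue) with the mean and SD of 3 libraries in black. KIT, DUSP6, FABP4, SCD and RRM2 lie lower and TXNIP and ARRDC4 higher in all 3 combination libraries.

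KIT mRNA was lower when imatinib was added. KIT had 12.8, 19.5 and 16.5 FPKM with imatinib plus JQ1, against 37.5, 42.4 and 49.3 FPKM with JQ1. The groups did not overlap, and the means differed 2.65-fold, a log2 change of -1.36 ± 0.18 (adjusted p = 8.06e-06). Relative to the typical gene the change was -0.67 ± 0.05, short of the fold limit although its adjusted p was 7.72e-09. On the deposited scale the change of KIT was more negative than that of nearly all genes, with 1.83% of them beyond it. PDGFRA, the related receptor that drives some of these tumors, had a log2 change of -0.78 and KITLG, which encodes the ligand of KIT, -0.52, and neither was called.

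The transcription factors of the lineage divided. HAND1, a basic helix-loop-helix factor, had 10.4, 19.8 and 11.5 FPKM with the combination, against 41.3, 46.1 and 52.7 FPKM with JQ1, and fell on both scales (-1.72 and -1.04 rescaled). HIC1, a transcriptional repressor, had 4.39, 7.76 and 4.36 FPKM, against 23.98, 25.4 and 36.6 FPKM (-2.20 and -1.60 rescaled). Groups of neither gene overlapped. ETV1, the ETS factor that KIT signalling stabilizes in these tumors, and FOXF1, a forkhead factor, stood near the typical gene: -0.69 and -0.72 on the deposited scale, and 0.01 and 0.000378 after rescaling, with no call on either scale.

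Surface markers of the tumor fell as well. CD34, a sialomucin used to diagnose it, had 124, 222 and 150.1 FPKM with imatinib plus JQ1, against 661, 776 and 907 FPKM with JQ1. The receptor GPR20 had 2.86, 4.48 and 2.76 FPKM, against 14.2, 17.6 and 20.4 FPKM. Neither gene's groups overlapped, and the rescaled log2 changes were -1.54 and -1.53. ANO1, a chloride channel and diagnostic marker, sat at the limit with -1.005, and its call ended after rescaling (-0.31), without JQ1 library 3 (-0.89) and without combination libraries 1 (-0.86) and 3 (-0.964). In all, 8 of 16 lineage genes fell, beside 7.35% of all genes, with a median of -0.98 (all genes -0.54). After rescaling 4 of 16 fell, beside 0.814%, with a median of -0.38 (all genes 0.02).

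Genes of lipid handling made up much of the rest of the steepest falls. FABP4, a carrier of fatty acids in the cytosol, had 13.3, 19.8 and 16.9 FPKM with imatinib plus JQ1, against 169, 186 and 219 FPKM with JQ1. That is 11.5-fold lower by the means, with no overlap, and a log2 change of -3.45 ± 0.18 (adjusted p = 1.47e-11; -2.77 rescaled). FABP5, of the same family, had 43.3, 64.3 and 49.4 FPKM, against 376, 406 and 467 FPKM, and fell 7.96-fold (-2.27 rescaled); processed copies of this gene in the genome could share its reads. SCD, the desaturase that makes oleate, had 21.5, 36.8 and 28.2 FPKM, against 154, 188 and 208 FPKM. Its log2 change was -2.65 ± 0.19 (adjusted p = 2.80e-09) and -1.94 rescaled. The groups of these 3 genes did not overlap, as the rule that named them required.

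Cholesterol and fatty acid synthesis genes as a list, most of them targets of the SREBP transcription factors, were together with the mitosis genes the lowest lists by median: lower than mitosis on the deposited scale and, by under 0.01, after ratio rescaling, and above it by under 0.01 with both rescalings to the total. Of 26 tested, 18 fell, beside 7.35% of all genes, with a median log2 change of -1.32, beside -0.54 for all genes. After rescaling 4 fell, beside 0.814%, with a median of -0.61, beside 0.02. Those 4 included SCD, INSIG1 and STARD4. INSIG1, which holds SREBP precursors in the endoplasmic reticulum, had 55.7, 96.4 and 75.01 FPKM with the combination, against 299.6, 350.3 and 373 FPKM with JQ1 (-2.19, -1.47 rescaled). STARD4, a sterol carrier, had 1.3, 1.87 and 1.58 FPKM, against 6.72, 7.45 and 8.18 FPKM (-1.71, -1.29 rescaled).

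Of the other steep falls, TMEM100, a membrane protein linked to BMP signalling in vessels, had 1.3, 1.67 and 1.77 FPKM with imatinib plus JQ1, against 22.02, 26.9 and 30.7 FPKM with JQ1 (-3.41 ± 0.17, adjusted p = 1.46e-11; -3.01 rescaled). DHRS2, a short-chain dehydrogenase, had 6.72, 15.3 and 9.09 FPKM, against 75.3, 92.4 and 97.8 FPKM (-3.04; -2.39 rescaled). IGDCC3, a receptor-like protein of the immunoglobulin superfamily that was singled out after its rescaled value was seen, had 0.47, 0.919 and 0.626 FPKM, against 5.28, 5.96 and 7.44 FPKM (-1.92 rescaled). Each of the 3 was lower in every combination library, as the rule that named TMEM100 and DHRS2 required.

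Short noncoding RNAs gave some of the largest numbers and the least steady ones. SNAR-F, an RNA from a family of near-identical copies among which reads can be split, had 0.043, 0.062 and 0.0502 FPKM with imatinib plus JQ1, the lowest values those libraries hold or close to them, against 20.1, 32.1 and 28.1 FPKM with JQ1, and its log2 change was -4.70 ± 0.97 (adjusted p = 5.95e-04). SCARNA22, a small Cajal body RNA, had 0.0635, 0.0791 and 0.0691 FPKM, against 18.6, 29.7 and 0.0978 FPKM, so that JQ1 library 3 lay near the combination libraries. Its call (adjusted p = 0.0479) ended after rescaling (adjusted p = 0.0804), in the fit without the unnumbered JQ1 library (-2.44), without JQ1 library 2 (-2.11) and without any 1 of the combination libraries (-3.02 to -3.03). Of the 6 rising genes 3 were short RNAs, and of the 939 falling ones 32. In all, 163 such names were tested, and among all tested genes 0.047% rose and 7.35% fell.

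Genes of the cell cycle fell together. RRM2, the small subunit of ribonucleotide reductase, had 13.9, 25.8 and 17.9 FPKM with imatinib plus JQ1, against 105, 124 and 132 FPKM with JQ1. The groups did not overlap, and the log2 change was -2.62 ± 0.19 (adjusted p = 3.58e-09; -1.94 rescaled). Of 44 DNA replication and E2F target genes, 36 fell, beside 7.35% of all genes, with a median of -1.17 (all genes -0.54). After rescaling 4 fell, beside 0.814%, with a median of -0.56 (all genes 0.02). Those 4 were RRM2, UHRF1, E2F1 and TYMS, the last of them thymidylate synthase. UHRF1, which maintains DNA methylation behind the replication fork, had 3.94, 7.95 and 5.04 FPKM, against 23.5, 24.7 and 28.9 FPKM (-1.44 rescaled). E2F1, the transcription factor of the list's name, had 4.59, 9.31 and 5.23 FPKM, against 20.2, 23.9 and 27.2 FPKM (-1.17 rescaled).

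Of 38 mitosis genes, 34 fell, beside 7.35% of all genes, with a median of -1.27. After rescaling 2 fell, beside 0.814%, with a median of -0.61. AURKB, the kinase of the chromosomal passenger complex, had 7.19, 14.1 and 8.96 FPKM with the combination, against 39.9, 44.99 and 52.8 FPKM with JQ1 (-1.47 rescaled). MKI67, which encodes the proliferation antigen Ki-67, had 5.2, 8.93 and 6.07 FPKM, against 22.4, 25.4 and 28.1 FPKM (-1.16 rescaled). The deposited counts moved with the libraries used. Without combination library 1, 19 replication and 24 mitosis genes fell, and without library 2, 39 and 38. After rescaling, 42 of the 44 replication genes and all 38 mitosis genes had an unadjusted p under 0.05 in the falling direction, beside 26.1% of all genes.

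Few genes rose on the deposited scale, and the largest rises among named genes were of an arrestin pair. ARRDC4 had 44.8, 80.97 and 59.1 FPKM with imatinib plus JQ1, against 20.5, 21.8 and 24.4 FPKM with JQ1. All 3 combination libraries lay above the JQ1 libraries, 2.77-fold by the means, a log2 change of 1.39 ± 0.18 (adjusted p = 8.44e-06). TXNIP had 303, 578 and 395 FPKM, against 169, 185 and 207 FPKM, again without overlap (2.27-fold, 1.14 ± 0.19, adjusted p = 1.29e-04). Both encode alpha-arrestins that draw glucose transporters off the cell surface, and both are known targets of the glucose sensor MondoA. KLF10, a zinc finger factor that TGF-beta induces, had 14.7, 26.5 and 19.05 FPKM, against 7.83, 9.16 and 9.52 FPKM (1.06 ± 0.18, adjusted p = 1.40e-04). ARRDC4, TXNIP and KLF10 were named by a rule that required no overlap. Rescaled log2 changes were larger, at 2.12 for ARRDC4, 1.86 for TXNIP and 1.79 for KLF10. On the deposited scale the call of TXNIP ended without combination library 2 (0.889), and that of KLF10 without this library (0.854) or without the unnumbered JQ1 library (0.988).

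The promoters of TXNIP and ARRDC4 are shown because these genes moved together, and that of RRM2 because it was the steepest fall of the replication list. They come from RefSeq (GRCh38.p14) and run from 250 bases before the first listed gene start to 50 after it, 5′ to 3′ on the strand of the gene. TXNIP is at chr1:145996530-145996829, minus strand, ARRDC4 at chr15:97960453-97960752, plus strand and RRM2 at chr2:10122489-10122788, plus strand. Capitals mark the matches, on either strand, to any of 6 motifs that were searched: the ETS core CCGGAAG, the FOXO motif TGTTTAC, the E-box CACGTG, the CRE core TGACGTC, the AP-1 motif TGAGTCA and the E2F motif TTCCCGC, none of which contains another.
TXNIP: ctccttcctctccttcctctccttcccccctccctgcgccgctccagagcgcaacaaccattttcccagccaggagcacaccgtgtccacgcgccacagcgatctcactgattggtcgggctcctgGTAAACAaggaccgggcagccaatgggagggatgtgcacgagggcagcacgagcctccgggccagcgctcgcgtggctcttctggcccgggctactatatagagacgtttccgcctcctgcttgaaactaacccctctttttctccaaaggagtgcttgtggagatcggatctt
ARRDC4: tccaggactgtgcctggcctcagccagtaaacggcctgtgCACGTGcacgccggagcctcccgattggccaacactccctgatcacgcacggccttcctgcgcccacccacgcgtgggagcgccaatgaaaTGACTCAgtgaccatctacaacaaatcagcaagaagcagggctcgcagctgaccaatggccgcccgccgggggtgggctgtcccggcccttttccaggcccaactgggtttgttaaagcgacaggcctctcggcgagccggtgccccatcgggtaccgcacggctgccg
RRM2: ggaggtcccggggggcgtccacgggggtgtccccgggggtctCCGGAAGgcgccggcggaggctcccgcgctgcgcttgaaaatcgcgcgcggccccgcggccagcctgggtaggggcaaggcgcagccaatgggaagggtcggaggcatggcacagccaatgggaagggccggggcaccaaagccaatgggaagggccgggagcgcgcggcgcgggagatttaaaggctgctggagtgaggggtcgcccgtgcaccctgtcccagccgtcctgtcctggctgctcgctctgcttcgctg

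The TXNIP window held a FOXO motif beginning 124 bases before the start, that of ARRDC4 an E-box 210 and an AP-1 motif 119 bases before, and that of RRM2 an ETS core 208 bases before. By symbol or synonym, 9985 of the 12771 tested names matched 9925 windows, 1 for each gene. Of the 29 genes that rose after rescaling, 18 had a window, and 3 of these (16.7%) held an E-box, beside 10.2% of tested genes and 7.43% of all 27305 windows. The FOXO motif was also in 3 of them, beside 2.19% and 3.41%; such small counts carry no test. Among the 37 replication and E2F genes with a window 19 (51.4%) held the E2F motif, beside 10.6% of tested genes and 6.56% of all windows, and among the 718 falling genes with a window 15% did. A match is a description of these letters and not a bound site.

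Further genes rose only after rescaling, since on the deposited scale they were short of the fold limit. The following were chosen after their values were seen. NPNT, the matrix protein nephronectin, had 6.83, 11.99 and 9.13 FPKM with imatinib plus JQ1, against 3.71, 4.28 and 4.7 FPKM with JQ1 (0.95 deposited, 1.67 rescaled). DCN, the proteoglycan decorin, had 61.004, 110.0 and 78.4 FPKM, against 44.7, 49.5 and 59.98 FPKM (0.65 and 1.38), and SEMA3E, a secreted semaphorin, had 7.38, 11.8 and 9.8 FPKM, against 5.62, 5.94 and 6.69 FPKM (0.57 and 1.27). In these 3 genes all combination libraries lay above all JQ1 libraries on the deposited scale. In RGS10, a regulator of G protein signalling, RDH10, a retinol dehydrogenase, DEPTOR, an inhibitor of mTOR, SULF2, a sulfatase of heparan sulfate, and COL12A1, a collagen, the deposited values overlapped, and rescaled log2 changes lay between 1.13 and 1.27.

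FOXO and AKT-restrained genes, which FOXO factors switch on when AKT is quiet, had the highest median of the lists. Of 23 tested, TXNIP rose, beside 0.047% of all genes. TNFSF10, the death ligand TRAIL, fell (-1.35, and -0.66 rescaled with no call), 4.35% of the list beside 7.35% of all genes. Without combination library 2, 2 members fell. The list median was -0.21 on the deposited scale, beside -0.54 for all genes, but 0.42 after rescaling, beside 0.02, so its sign turns with the scale. TXNIP and FBXO32, a ubiquitin ligase of muscle atrophy, rose after rescaling, beside 0.227% of all genes. FBXO32 had 2.57, 4.29 and 3.19 FPKM with the combination, against 2.03, 2.21 and 2.75 FPKM with JQ1 (0.37 deposited, 1.01 rescaled), and its groups overlapped on the deposited scale. BCL2L11, which encodes the death protein BIM, had 3.43, 5.75 and 4.22 FPKM, against 4.6, 5.17 and 5.998 FPKM, with overlap and no call on either scale (-0.21 deposited, 0.42 rescaled).

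Markers of the response to BET inhibition were, by their median, lower by about as much as the typical gene. HEXIM1, an inhibitor of the elongation kinase P-TEFb that is used to follow BET inhibitors, had 7.64, 15.1 and 8.97 FPKM with imatinib plus JQ1, against 14.6, 17.2 and 17.9 FPKM with JQ1. Its groups overlapped (-0.65 ± 0.20, adjusted p = 0.00723; 0.02 rescaled). SERPINI1, the protease inhibitor neuroserpin, had 59.9, 97.3 and 82.6 FPKM, against 54.7, 59.7 and 61.8 FPKM, with a log2 change of 0.41 (adjusted p = 0.0526) that passed the test only after rescaling (1.14). Of the 11 markers, 8 had an unadjusted p under 0.05 in the falling direction on the deposited scale, beside 76.7% of all genes, and none of those reached the fold limit (limma); without combination library 2, 1 did. Their median was -0.51, beside -0.54 for all genes, and 0.12 after rescaling, beside 0.02.

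Metabolic and housekeeping lists differed in degree, and are set beside 7.35% of all genes falling, with medians of -0.54 and, after rescaling, 0.02. Of 19 glycolysis genes 9 fell, led by ALDOA (-1.59), the aldolase of muscle, and ENO1 (-1.52), an enolase, with a list median of -0.9995 and, after rescaling, -0.43. Of 49 oxidative phosphorylation genes 9 fell, such as ATP5G1 (-1.17), a subunit of ATP synthase, and the list median was -0.80 and, after rescaling, -0.08. Of 35 ribosome biogenesis and MYC target genes 3 fell (8.57%, about the share of all genes), led by ODC1 (-1.46), the first enzyme of polyamine synthesis, with a median of -0.75 and, after rescaling, -0.11. Among 77 cytosolic ribosomal protein genes RPS26 fell (-1.04; -0.948 and no call without JQ1 library 3, -0.82 and no call without combination library 1), and the median of -0.47 became 0.26 after rescaling. None of the named members of these lists was called after rescaling. These counts moved with single libraries. Without combination library 1 the oxidative phosphorylation list had 2 falls and without combination library 2 it had 26, and for ribosome biogenesis the number was 15 without combination library 2 and 1 without JQ1 library 3. The ribosomal protein list had 2 falls without JQ1 library 2.

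Of the remaining lists, chemokines and interferon genes held the largest falls. XCL1 and XCL2, chemokines from near-identical genes whose reads can be shared, had 10.5, 15.7 and 13.4 FPKM and 5.62, 9.18 and 5.92 FPKM with imatinib plus JQ1, against 60.5, 70.9 and 90.2 FPKM and 32.5, 35.03 and 48.9 FPKM with JQ1. Both fell on both scales (-1.72 and -1.71 rescaled), and they were the only calls among 9 NF-kB and cytokine genes. That is 22.2% of the list, beside 7.35% of all genes and, after rescaling, 0.814%. CXCL10, an interferon-induced chemokine, had 0.0461, 0.084 and 0.0525 FPKM, close to the lowest values in those libraries, against 2.68, 3.14 and 2.76 FPKM, and IFI27 had 1.25, 2.92 and 2.32 FPKM, against 8.53, 9.53 and 9.1 FPKM. With ISG15 these were the 3 falls among 29 interferon response genes (10.3%, beside 7.35% of all genes), whose median was -0.44, beside -0.54 for all genes. The call of ISG15 ended without combination library 1 (-0.905), combination library 3 (-0.929) or JQ1 library 3 (-0.945), and without combination library 2 the list had 6 falls. CALD1, the actin binding protein caldesmon, had 26.6, 48.1 and 34.03 FPKM, against 111, 124 and 134 FPKM (-1.06 rescaled). It led 3 falls among 11 smooth muscle genes (27.3%, beside 7.35% of all genes). Of these, ACTA2, smooth muscle actin, lost its call without combination library 1 (-0.895) or JQ1 library 3 (-0.96).

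Calls in 6 further lists are set beside 7.35% of all genes, the share that fell. Of 21 ATF4 and amino acid response genes 4 fell, led by DDIT4 (-1.36), and of 20 heat shock genes 6 fell, led by HSPE1 (-1.11). Of 13 BCL2 family genes BAX (-1.18) and BID (-1.05) fell, both promoters of cell death, and of 22 p53 target genes FAS (-1.22) and BAX did (9.09%). Of 16 receptor tyrosine kinases besides KIT and PDGFRA, FGFR2 (-1.09) and DDR1 (-1.05) fell, and of 28 matrix and integrin genes ITGB5 (-1.33) and THBS1 (-1.13) fell (7.14%). None of these named genes was called after rescaling. Without combination library 1 the calls of the heat shock, BCL2 family and receptor kinase lists all ended, as did that of THBS1 (-0.962), and the amino acid response list had 2 falls. Without JQ1 library 3 the calls of BID (-0.971) and DDR1 (-0.9) ended, and without combination library 3 that of BID (-0.977) did. Without combination library 2 the amino acid response and heat shock lists had 11 falls each, and the matrix list 6; without the unnumbered JQ1 library the amino acid response list had 9.

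In the last 5 lists the share that fell was 3.85% to 18.2%, beside 7.35% of all genes, from 1 or 2 calls each. AFF1 (-1.08), a scaffold of elongation complexes, fell among 13 BET protein and P-TEFb genes, CTSL1 (-1.13), the lysosomal protease cathepsin L, among 26 autophagy and lysosome genes, and CTGF (-1.15), a secreted matrix-associated protein, among 12 YAP and TEAD genes. MXD3 (-1.51), a partner of MAX, and MYCN fell among 11 genes of the MYC network, and CCND1 among 17 cell cycle inhibitors and D cyclins. The calls of AFF1 (-0.959) and CTSL1 (-0.975) ended without combination library 1, and that of AFF1 ended without JQ1 library 3 (-0.984). Without combination library 2, 6 BET protein and P-TEFb genes, 3 autophagy genes and 7 cell cycle inhibitors and D cyclins fell, and 2 YAP and TEAD genes did without that library or without the unnumbered JQ1 library.

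**Figure D3:**
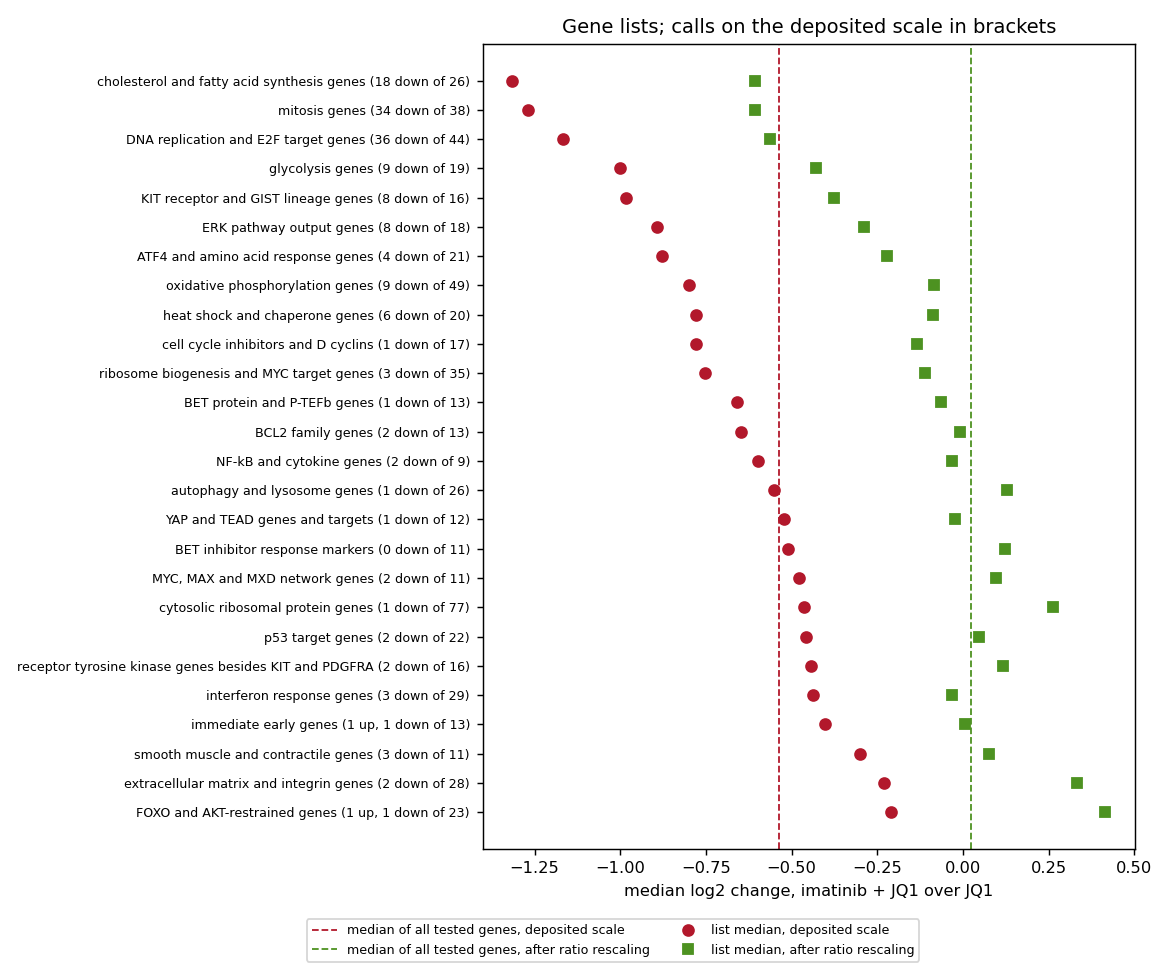
Median log2 change, imatinib plus JQ1 over JQ1, of each gene list with at least 9 tested genes, on the deposited scale (red circles) and after ratio rescaling (green squares), with calls on the deposited scale in brackets. Dashed lines are the medians of all tested genes, -0.54 and 0.02; cholesterol and fatty acid synthesis, mitosis and replication genes lie lowest and FOXO genes highest on both scales.

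Markers of other cell types were scarce in these libraries. All 6 endothelial markers, 5 of 6 leukocyte markers, 6 of 8 neural and glial markers and 4 of 6 epithelial markers were below 1 FPKM in all 6 libraries. The exceptions included TUBB3, a tubulin, at 15.8, 32.4 and 18.8 FPKM with imatinib plus JQ1, against 58.2, 70.2 and 77.7 FPKM with JQ1, and KRT18, a keratin, at 15.1, 27.6 and 17.7 FPKM, against 43.5, 51.2 and 58.4 FPKM. Both fell on the deposited scale and neither was called after rescaling. Summed levels were 0.582 to 0.623 FPKM with imatinib plus JQ1 and 0.681 to 0.730 FPKM with JQ1 for endothelial markers, 1.06 to 1.84 FPKM and 2.12 to 3.26 FPKM for leukocyte markers, 18 to 35.99 FPKM and 60.5 to 80.9 FPKM for neural and glial markers, and 16.6 to 29.5 FPKM and 45.8 to 61.8 FPKM for epithelial markers. Their part in the results was not tested.

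The effect of imatinib in the presence of JQ1 was then set beside its effect without JQ1, imatinib for 24 h against DMSO, a comparison that shares no library with the first. Without JQ1 more genes passed the test: 9210 fell (72.1%) and 82 rose (0.642%) on the deposited scale, together 72.8%, with a median of -1.503, and 1114 fell (8.72%) and 1124 rose (8.8%) after rescaling, together 17.5%. That even split was not kept with rescaling to the total, where 512 fell and 2553 rose, or without MIR1244, where 1028 fell and 1374 rose. Of the 104 genes that fell with JQ1 after rescaling, 64 also fell without it, which is 61.5% of the first list and 5.75% of the second. Of the 29 that rose, 23 also rose without JQ1, 79.3% of the first list and 2.05% of the second. Across 12608 genes without short RNA names the rescaled log2 changes of both comparisons had Pearson r 0.635 and Spearman rho 0.607, and 71.6% had the same sign, as a description over genes that are not independent and that all rest on the same kind of library.

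**Figure D4:**
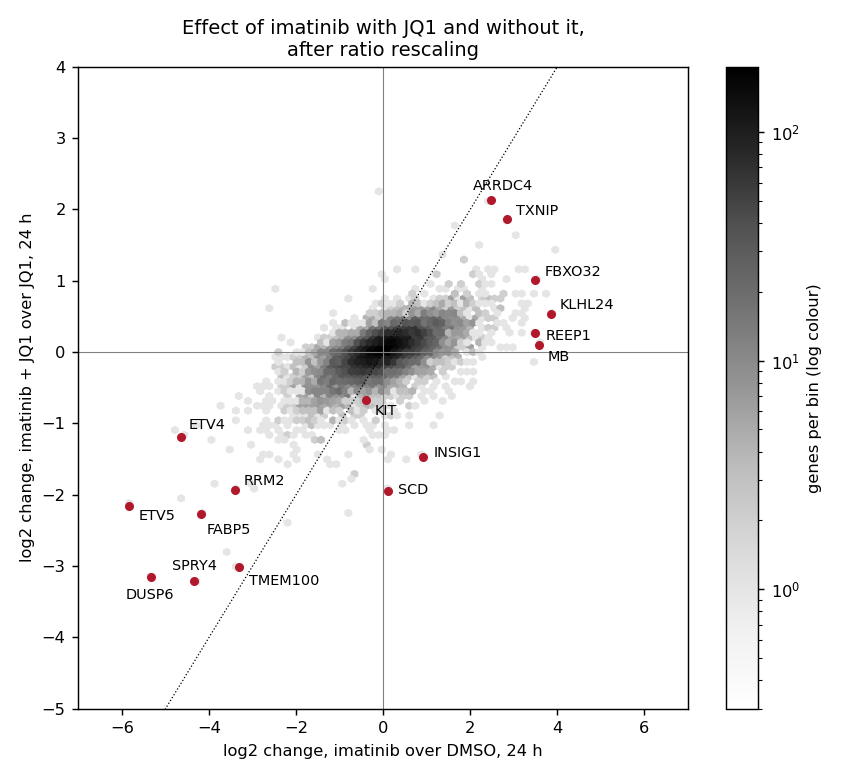
Rescaled log2 change of imatinib plus JQ1 over JQ1 (vertical axis) against that of imatinib over DMSO (horizontal axis), both at 24 h for the drugs, for 12608 genes without short RNA names (grey bins, log colour). The dotted line marks equal changes; ERK output genes such as ETV5 and DUSP6 lie left of it, and SCD and INSIG1 lie below it.

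The difference between both effects was tested for each gene as an interaction, the effect of imatinib with JQ1 minus its effect without JQ1. On the deposited scale the interaction was positive in 5974 genes (46.8%), which means a less negative or more positive log2 change with JQ1. It was negative in 119 (0.932%), together 47.7%. The median change of all genes was -0.54 with JQ1 and -1.503 without it. After rescaling the numbers were 623 positive (4.88%) and 745 negative (5.83%), together 10.7%. The balance depends on the scale: rescaling to the total gave 245 and 1957, and without MIR1244 507 and 1028. For 8 of the 18 ERK output genes the interaction was positive after ratio rescaling, beside 4.88% of all genes. With rescaling to the total the calls of SPRY4 (0.66) and SPRY2 (0.78) ended. DUSP6 had 0.435 ± 0.0315 FPKM with both drugs and 12.6 ± 2.42 with JQ1, and 1.02 ± 0.0268 with imatinib and 242 ± 62.4 in DMSO (SD, n = 3 each). The JQ1 group was well below the DMSO group, and the interaction was 3.64 ± 0.26 (adjusted p = 4.42e-10), or 2.19 rescaled. ETV5 had 3.64 ± 1.16 FPKM with both drugs and 28.9 ± 4.73 with JQ1, and 0.549 ± 0.0304 with imatinib and 246 ± 47.6 in DMSO, with an interaction of 4.59 ± 0.26 (adjusted p = 8.35e-12) and 3.67 rescaled. Other members that were not called lay on the other side, such as IER3 with -0.65 and EPHA4, an ephrin receptor, with -0.47 after rescaling; both were chosen after their values were seen.

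RRM2 had 19.2 ± 6.06 FPKM with both drugs and 120.5 ± 13.8 with JQ1, and 20.8 ± 0.789 with imatinib and 771 ± 159 in DMSO, and its fall was smaller with JQ1 too, by 2.50 on the deposited scale and 1.47 rescaled. Of the 44 replication genes 18 had a positive interaction after rescaling, of the 35 ribosome biogenesis genes 25, and of the 20 heat shock genes 11, beside 4.88% of all genes. These counts are for ratio rescaling. With rescaling to the total UHRF1 lost its call (0.72, against 1.11), while RRM2 (1.05), NOP16 (1.18) and MRTO4 (1.05) kept theirs. KITLG, the gene of the KIT ligand, had 2.04 ± 0.441 FPKM with both drugs and 3.35 ± 0.39 with JQ1, and 1.26 ± 0.183 with imatinib and 18.3 ± 2.34 in DMSO, an interaction of 2.57 ± 0.20 (adjusted p = 1.09e-09). Of the 35 ribosome biogenesis genes 28 fell without JQ1 after rescaling, beside 8.72% of all genes. With JQ1 the list had no call after rescaling, where 15 had an unadjusted p under 0.05 in the falling direction, beside 26.1% of all genes (limma).

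Some cholesterol and fatty acid synthesis genes went the other way. The fatty acid carriers did not, with interactions of 2.93 for FABP5 (1.91 rescaled) and 1.86 for FABP4 (0.81 rescaled and then no call). SCD had 28.8 ± 7.67 FPKM with both drugs and 183 ± 27.5 with JQ1, and 93.4 ± 7.19 with imatinib and 295 ± 63.4 in DMSO. Relative to the typical gene imatinib without JQ1 left it at 0.10, while with JQ1 the log2 change was -1.94; the interaction was -1.02 ± 0.27 (adjusted p = 0.00176) and -2.05 rescaled. INSIG1 had 75.7 ± 20.3 FPKM with both drugs and 341 ± 37.6 with JQ1, and 115 ± 8.64 with imatinib and 207 ± 39.6 in DMSO, an interaction of -1.36 ± 0.26 (adjusted p = 1.07e-04) and -2.37 rescaled. The JQ1 group had the highest mean of the 4. Of 26 cholesterol and fatty acid synthesis genes, 7 had a negative interaction after rescaling, beside 5.83% of all genes, and the list median after rescaling was -0.61 with JQ1, against 0.09 without it. HAND1, GPR20, PDGFRA and ETV1 likewise had negative interactions after rescaling (-1.70, -1.61, -1.62 and -1.10). None was called on the deposited scale (-0.65, -0.45, -0.61 and -0.08). After rescaling PDGFRA and ETV1 rose with imatinib alone (1.52 and 1.11) and had -0.11 and 0.01 with JQ1. Of the 16 lineage genes 4 had a negative and 1 a positive interaction after rescaling, beside 5.83% and 4.88% of all genes.

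Several genes that rose with imatinib alone were not called on either scale when it was added to JQ1. KLHL24, MB, KLHL38, LY86 and REEP1 were named for the size of their negative interaction, so that size adds no support. KLHL24 was also on the fixed list. KLHL24, a FOXO list member that encodes an adaptor of a ubiquitin ligase, had 53.7 ± 15.1 FPKM with both drugs and 59.7 ± 4.58 with JQ1, and 67.4 ± 6.95 with imatinib and 13.3 ± 1.82 in DMSO. Its mean with both drugs was below those with either drug, but libraries with both drugs overlapped those with JQ1 (-0.19, limma adjusted p = 0.332). The interaction of KLHL24 was -2.44 ± 0.25 (adjusted p = 7.12e-08) and -3.32 rescaled. MB, which encodes myoglobin, had 0.203 ± 0.0448 FPKM with both drugs and 0.291 ± 0.243 with JQ1, and 10.7 ± 0.672 with imatinib and 0.762 ± 0.379 in DMSO, so that the imatinib group was the only 1 of these 4 with a mean above 1 FPKM. The filter on level itself required at least 1 FPKM in at least 3 libraries. KLHL38, of the same family as KLHL24, had an interaction of -3.13 (-3.64 rescaled), LY86, a partner of a Toll-like receptor homologue, -2.50 (-2.76), and REEP1, a protein that shapes the endoplasmic reticulum, -2.32 (-3.22). Relative to the typical gene, adding imatinib to JQ1 changed KLHL24 by 0.53 (limma adjusted p = 1.08e-06), LY86 by 0.42 (0.00423) and REEP1 by 0.27 (6.37e-04). These rises were short of the fold limit. MB changed by 0.10 and KLHL38 by -0.18. Of 23 FOXO list genes 16 rose without JQ1 after rescaling, beside 8.8% of all genes, and 15 had a negative interaction, beside 5.83%. For ARRDC4 and TXNIP the rescaled changes were 2.12 and 1.86 with JQ1, and 2.47 and 2.84 without it. Neither interaction was called on the deposited scale or after ratio rescaling, and that of TXNIP was called with total rescaling (-1.40) and total rescaling without MIR1244 (-1.09).

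**Figure D5:**
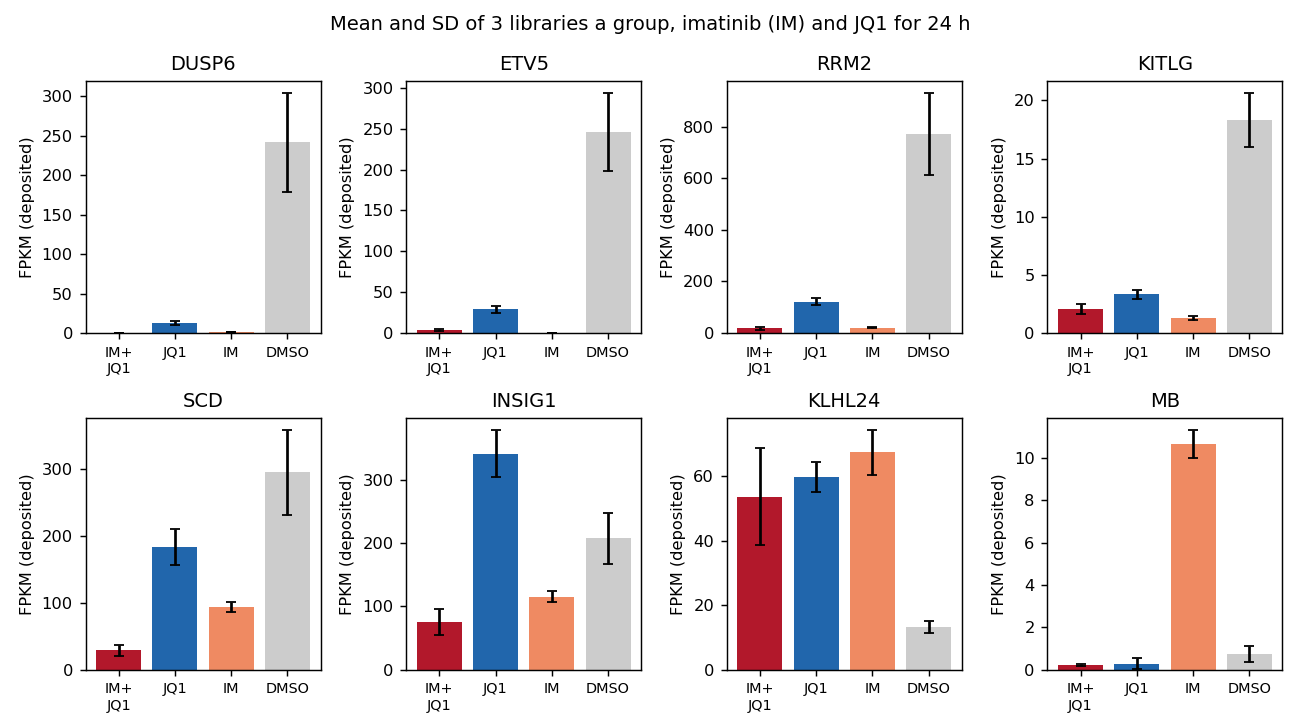
Mean FPKM and SD of 3 libraries on the deposited scale with imatinib plus JQ1, JQ1, imatinib and DMSO (left to right) for 8 genes. DUSP6, ETV5, RRM2 and KITLG are highest in DMSO, INSIG1 is highest with JQ1, and the mean of MB is above 1 FPKM with imatinib only.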

How the data were processed

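The authors deposited 1 table of FPKM values for 18 libraries, scaled to ERCC spike-ins as far as the file label and the values show; the submitters' processing notes name STAR, Cufflinks and hg19 without versions, and per the labels' protocols the kit was stranded and reads single-end. The strand setting, scaling step, annotation and read depth are not given in the sources used here, so the spread among a group's libraries sets the precision. Of 23621 genes, 12771 had at least 1 FPKM in at least 3 libraries. The 24 spike-ins with a mean of at least 5 were used to check the scale. One JQ1 24 h column has a number found in no title and is called unnumbered here. Names turned into dates (28) are not printed. No 2 columns of a group were alike, with Pearson r between 0.981 and 0.989 for pairs on the log2 scale.

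The values, as log2(FPKM + 1), were fitted with limma 3.58.1 (R 4.3.3) as 6 group means with a trend of spread on level and 12 residual degrees of freedom; the 6 groups, those of imatinib and JQ1 at 6 h included, share the estimate of spread. Tests were two-sided, with Benjamini-Hochberg adjustment over all tested genes, separately for the 3 comparisons. Calls needed an adjusted p below 0.05 and an absolute log2 change of 1 or more. The added 1 understates the change of genes with low FPKM. Rescaled fits used the deposited values for the filter. The fit was tested on simulated data. Figures were drawn with Python and matplotlib.

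Named genes were 18 fixed ones, up to 12 calls in each direction, taken by size, whose groups did not overlap and whose higher group averaged 5 FPKM or more, 6 and 6 interaction genes, and up to 4 called members of each list. Genes, lists and comparisons were chosen with earlier results of these data known. The settings varied were the pseudocount (0.1, 0.01), the filter (none, or 5 FPKM on average), 3 rescalings, a replicate block, array weights, the compared groups only, other fold limits and leaving out each library; leaving out libraries after rescaling was added after seeing the data. Promoters came from the RefSeq table of GRCh38.p14 and no coordinates were taken from the hg19 values. Some genes that the rule names are not reported here.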

Additional observations from a re-analysis of the deposited data

Results flagged for a closer look

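The effect of imatinib with JQ1 minus its effect without JQ1 passed limma's test in many genes, and the values below are for genes chosen by level, size of change or the fixed list whose deposited and rescaled differences were both called in the same direction. It was positive in 5974 genes and negative in 119 on the deposited scale. Among negative regulators and targets of the ERK pathway the log2 difference was 3.64 for DUSP6, 2.78 for SPRY4, 2.27 for SPRY2, 4.79 for ETV4 and 4.59 for ETV5. It was 2.57 for KITLG, 2.5 for RRM2, 2.93 for FABP5 and 2.45 for IGDCC3. Among other genes of large difference, chosen after their values were seen, it was 4.66 for PCDH12, 4.65 for RASL11A and 4.14 for CXCL10. Means with both drugs and with imatinib were 0.061 and 0.120 FPKM for CXCL10, 0.179 and 0.340 for PCDH12, and 0.259 and 0.186 for ETV4. At such low values the difference rests largely on the levels without imatinib, for CXCL10 2.86 FPKM with JQ1 and 71.9 in DMSO. SPRY4 had 0.295 and 2.35 FPKM, and its means fell 37.0-fold with JQ1 and 89.9-fold without it. The added 1 understates its change with JQ1 more than that without it. With rescaling to the total the calls of SPRY4 (0.66), SPRY2 (0.78) and IGDCC3 (0.68) ended. That of IGDCC3 also ended with total rescaling without MIR1244 (0.996). SERF2-C15ORF63, a readthrough name whose combination libraries held 0.0495, 4.35 and 1.09 FPKM, gave 4.33.

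In other genes the difference was negative, so that the log2 change was lower with JQ1 than without it. It was -3.13 for KLHL38, -2.84 for MB, -2.5 for LY86, -2.44 for KLHL24, -2.32 for REEP1, -2.23 for FBXO32, -1.69 for SULF2 and -1.37 for DEPTOR. SCD, which fell with JQ1 and had a rescaled change of 0.10 without it, had -1.02. SCARNA22 had -4.23, a call that ended without any 1 of 10 of the 12 libraries, where the value lay between -3.29 and -4.28 (limma).

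Short RNAs of the SNAR family had the largest positive differences, 5.68 for SNAR-G1, 5.67 for SNAR-A1 and 4.87 for SNAR-C4; SNAR-A2, SNAR-A12 and SNAR-A13 hold the same values as SNAR-A1, and reads can be split among such copies. The call of SNAR-G1 ended with array weights (2.61, adjusted p = 0.459), and that of SNAR-C4 with array weights (3.88, adjusted p = 0.247) and total rescaling (3.76, adjusted p = 0.0589; limma).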

How the results depend on the processing

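On the deposited scale 6 genes rose and 939 fell, and these numbers depend on the processing. The rising number was 10 and 12 with pseudocounts of 0.1 and 0.01, 3 with no filter, 29, 34 and 29 after ratio rescaling, total rescaling and total rescaling without MIR1244, 2 with array weights, 24 in a fit of the compared groups only, 27 with no fold limit and 13 with a limit of 0.5. The falling number was, for the same pseudocounts, 1893 and 2258, for the 3 rescalings 104, 108 and 115, with array weights 2314, with no fold limit 9379 and with 0.5 6981. The median change was -0.162 with no filter and 0.0219, 0.0439 and -0.00599 after the rescalings. Interaction calls, 6093 in all, were 1368, 2202 and 1535 after the rescalings, 10039 with no fold limit and 9769 with 0.5, and imatinib alone gave 9292 calls, and 2238, 3065 and 2402 rescaled. Leaving out 1 library gave 2 to 7 rising genes (lowest without combination library 2), 459 to 2365 falling genes (without combination libraries 1 and 2), 4748 to 7221 interaction calls, 8717 to 9753 calls for imatinib alone, medians of -0.712 to -0.39 and total ratios of 0.512 to 0.682; after ratio rescaling 28 to 32 genes rose and 101 to 109 fell. A replicate block gave 8 rising and 1013 falling genes, 6021 interaction calls, 9295 calls for imatinib alone and a median of -0.549. Deviations of libraries sharing the numbers 2 and 3 had r of -0.0639 and -0.0166, against 0.165 and 0.0431 for unlike numbers. Resting on 3 libraries a group, these values cannot settle whether the numbers pair libraries. Signs turned for KITLG with total rescaling (0.0199), for ETV1 (0.00721, 0.033) and FOXF1 (0.000378, 0.0265) and HEXIM1 (0.0219, 0.0474) with ratio and total rescaling, for BCL2L11 (0.418, 0.452, 0.392) and KLHL24 (0.533, 0.56, 0.499) with all 3, for KLHL24 without combination library 1 (range over left-out libraries -0.38 to 0.03), and for MYC with the block (-0.0168) and without the unnumbered JQ1 library (range -0.0338 to 0.134). The cause was not tested, beyond the fact that rescaling removes the shift of the typical gene. Total FPKM without MIR1244, and the median FPKM of tested genes, gave ratios of 0.631 and 0.613. The fit of array weights stopped before full convergence. Depth is unknown, so its part in low values cannot be given.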
